A study of Mus musculus with 9 samples.

Results

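Splicing factors and RNA helicases are the proteins that cut introns out of nuclear RNA and that remodel RNA. They were followed here in bone and bone marrow of castrated and sham-operated mice. The genes were taken by symbol: the SR proteins (Srsf), the small nuclear ribonucleoprotein (snRNP) proteins (Snrp), the heterogeneous nuclear ribonucleoproteins (Hnrnp), the SF3 and PRPF factors (Sf3a, Sf3b, Prpf) and the DEAD-box and DEAH-box proteins (Ddx or Dhx followed by a digit), without Ddx3y. A feature was used if its annotation named 1 gene and if 2 or more arrays in each group gave it a value. This gave 53 genes with 74 features, out of 4775 named genes and 7170 rows (named genes and unnamed features) in all. There were 5 Srsf, 5 Snrp, 15 Hnrnp, 8 Sf3 or Prpf, 13 Ddx and 7 Dhx genes. Every gene that met the name rule also passed the filter on missing values, and 51 of the 53 had a value on all 9 arrays.

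Each array compared 1 castrated with 1 sham-operated C57BL/6 mouse, labelled with the dyes Cy5 and Cy3. The 3 groups of 3 arrays were bone of young mice, bone marrow of young mice, and specimens of old mice that the labels call bone marrow. Young mice were 17 weeks old and old mice 59 weeks. The labels give castration at 7 weeks, and no further allele or agent. The old mice thus differed from the young in both age and time since castration, and these cannot be told apart. Each replicate was a separate pair of mice per the design text, and p-values measure the spread between such arrays. The text mentions separation of marrow from bone only for the young mice, and the extraction protocol speaks of pulverized bone, so the old specimens are called the old group. Only ratios were used, so the labelled tissues could not be checked by marker levels, and precision is set by how few arrays there are.

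The deposited values are log ratios, read here as log2; their log base and direction are not given in the sources used here. Every array is described as castrated against sham, so a value above 0 was taken to mean more RNA in the castrated mouse on all 9 arrays. This direction is likely and not settled. On 3 arrays, 1 per group, the castrated mouse was in Cy3 (replicate 3 of young bone and replicate 2 of the other groups). If the ratio is Cy5 over Cy3 instead, the sign of those 3 arrays turns. Values so turned are named the channel reading. The limma fit used below holds a term for the dye of the castrated mouse. This term passed an adjusted p under 0.05 in 0 of 7170 rows with the deposited signs and in 187 in the channel reading. Between 8290 and 10995 features per array had a value. The SD over features lay between 0.192 and 0.294 on 8 of the arrays, while replicate 1 of the old group had an SD of 0.455 and a median of -0.11. Each specimen holds many cell types, so fewer cells of a type and less RNA per cell cannot be told apart. Beside the results below, 7 of 12 listed B lymphocyte genes were measured, with medians of 0.72 to 1.11 on the 9 arrays, and 5 of 12 granulocyte genes, with medians of -0.65 to -0.25; in the average of the groups 6 of the 7 and 5 of the 5 passed the test. Their part in the results was not tested.

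As background, the spliceosome is built from snRNPs, each a small RNA with a ring of Sm proteins and its own proteins, and the SF3 complexes hold the U2 snRNP on the branch site of an intron. SR proteins mostly favour the use of nearby exons, while hnRNPs coat RNA and often oppose it. DEAD-box and DEAH-box proteins use ATP to remodel RNA in splicing, export, translation and ribosome assembly; in the marrow, where cells divide and mature, splicing choices mark stages of blood cells, such as the forms of the surface phosphatase CD45.

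Promoters are shown for Snrpg, Snrpe and Srsf3, 3 genes whose deposited ratios had opposite signs in 2 groups on every array; no difference between groups passed the test for them. Each is the 250 bases before the start of the gene in RefSeq (GRCm38.p6), written 5′ to 3′ on the strand of the gene. Capitals mark matches to the CCAAT box (CCAAT or ATTGG), the TATA box (TATAAA or TTTATA), and the ETS core (CCGGAAG or CTTCCGG).
Snrpg, chr6:86371290-86371539, plus strand: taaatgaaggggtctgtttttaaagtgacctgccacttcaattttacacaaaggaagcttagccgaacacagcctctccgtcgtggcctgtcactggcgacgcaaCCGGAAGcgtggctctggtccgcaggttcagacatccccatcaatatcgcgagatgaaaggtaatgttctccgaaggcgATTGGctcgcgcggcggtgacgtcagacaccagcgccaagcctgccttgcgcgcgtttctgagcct
Snrpe, chr1:133610281-133610530, minus strand: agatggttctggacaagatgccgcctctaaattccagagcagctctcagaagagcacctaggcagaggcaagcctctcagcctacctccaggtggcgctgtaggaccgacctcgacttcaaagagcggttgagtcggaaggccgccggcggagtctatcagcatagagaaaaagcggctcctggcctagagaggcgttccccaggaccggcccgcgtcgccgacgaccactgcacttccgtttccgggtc
Srsf3, chr17:29032410-29032659, plus strand: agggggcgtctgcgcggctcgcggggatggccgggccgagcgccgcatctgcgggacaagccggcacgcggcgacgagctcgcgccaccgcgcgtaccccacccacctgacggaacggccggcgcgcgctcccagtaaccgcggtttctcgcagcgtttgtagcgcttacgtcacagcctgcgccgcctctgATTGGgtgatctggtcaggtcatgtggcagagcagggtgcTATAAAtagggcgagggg
Both Snrpg and Srsf3 held a CCAAT box, Snrpg also an ETS core and Srsf3 a TATA box, while none of the letters searched was in the Snrpe window. The search also covered the E-box (CACGTG) and the GC box (GGGCGG or CCGCCC), on both strands. Promoters were matched for 48 of the 53 genes, 65 in all. The ETS core was in 30.8% of these against 6.91% of all 32851 promoters, and the GC box in 58.5% against 32.7%. The CCAAT box was in 40.0% against 33.8%, the TATA box in 9.23% against 12.4%, and the E-box in 9.23% against 6.02%. The 32851 promoters were not limited to genes measured here, and a gene with several promoters counts more than once. A match is a description of the sequence, not evidence of binding.

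In the average of the 3 groups the genes stayed close to 0. Their median log2 ratio was 0.013, against -0.0025 over all 7170 rows, and the values ran from -0.24 (Hnrnpll) to 0.20 (Ddx54). The ratio was above 0 for 33 of 53 genes (48.7% of all rows). By limma, fitted to all rows with a term for the dye, 1 of 53 genes passed an adjusted p under 0.05, compared with 3.91% of all rows. At an unadjusted p under 0.05 there were 5 genes, 4 above 0 and 1 below, against 16.0% of all rows. In the channel reading none of the 7170 rows passed (337 at an unadjusted p under 0.05, 4.7%). There 5 of the genes had an unadjusted p under 0.05, all below 0, and 17 of 53 stood above 0, against 49.1% of all rows.

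**Figure D1:**
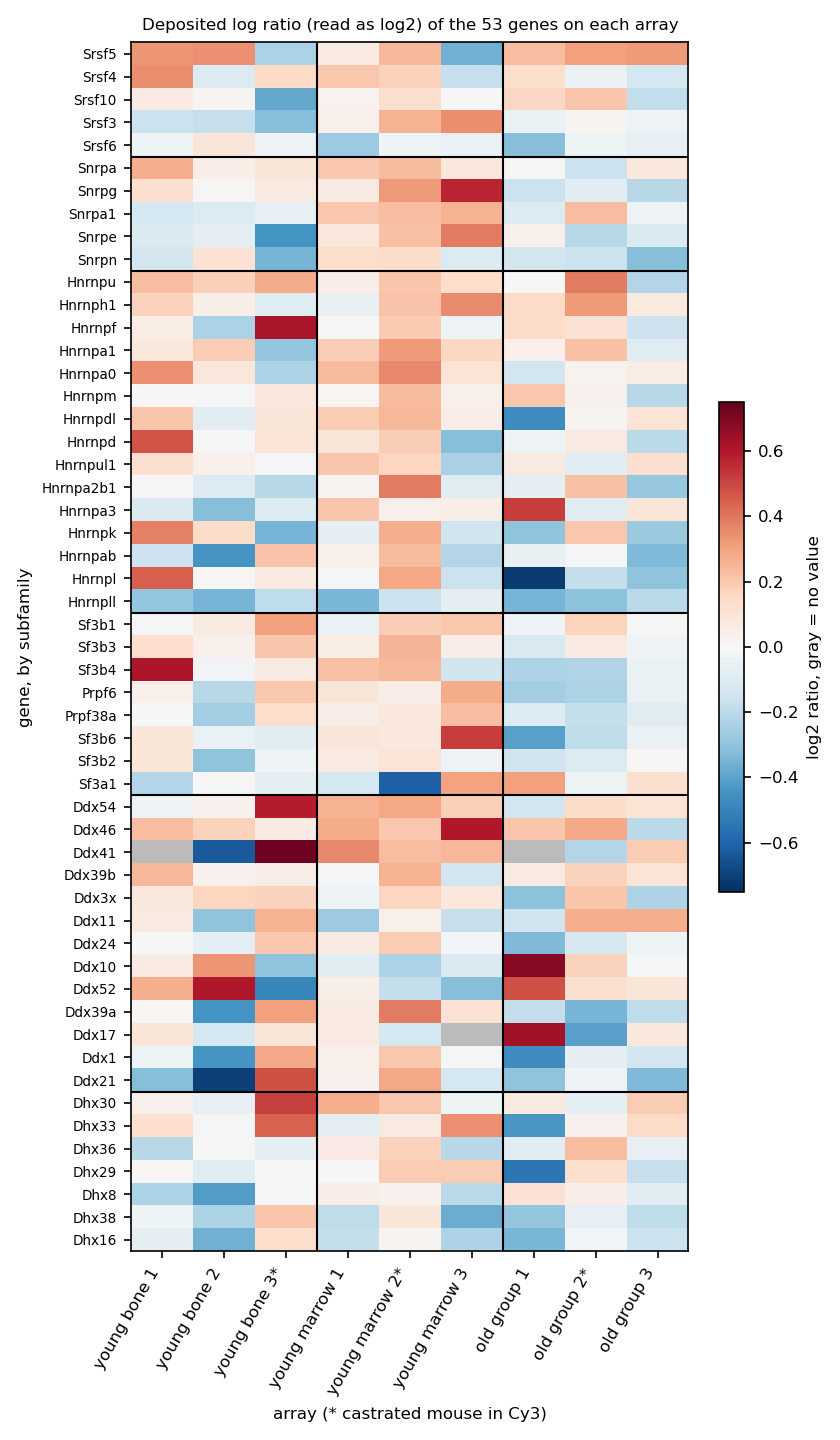
Deposited log2 ratio of each of the 53 genes (rows, by subfamily) on each of the 9 arrays (columns; an asterisk marks an array with the castrated mouse in Cy3), as a colour scale. Hnrnpll is the only row below 0 on all 9 arrays, and on young marrow replicate 2 most rows are above 0 (47 of 53).

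The gene that passed was Hnrnpll, whose product is known to repress variable exons of CD45 in lymphocytes. Its deposited ratios were -0.29, -0.35 and -0.19 in young bone, -0.34, -0.16 and -0.07 in young marrow, and -0.35, -0.31 and -0.20 in the old group. It was below 0 on 9 of 9 arrays, the only one of the 51 fully measured genes with 1 sign throughout; 2.41% of all rows with 9 values were below 0 on every array, and 1.89% above. The groups overlapped. The average fell by 0.24 on the log2 scale (SE 0.053, n = 9, limma adjusted p = 0.035). By group the fitted values were -0.27, -0.18 and -0.28, with limma adjusted p of 0.35, 0.526 and 0.197, so no single group passed. The call rests on many arrays at once: the adjusted p of Hnrnpll was 0.204 without old replicate 2, 0.0784, 0.0749 and 0.0977 without young bone replicates 1, 2 and 3, and 0.108 and 0.229 without young marrow replicates 1 and 2. It was also 0.0598 after scaling the arrays to the same spread and 0.134 on the 6 unswapped arrays. Hnrnpll kept its limma call without old replicates 1 and 3 and young marrow replicate 3 (adjusted p of 0.0481, 0.021 and 0.0447). The call also held after centring (0.0423), with array weights (0.00351) and with no dye term (0.0135). Where leaving out 1 array lost the call, 74 to 199 rows passed in all, against 280 with all arrays. In the channel reading the average of Hnrnpll was -0.023 (adjusted p = 0.938). The gene was measured by 1 feature.

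**Figure D2:**
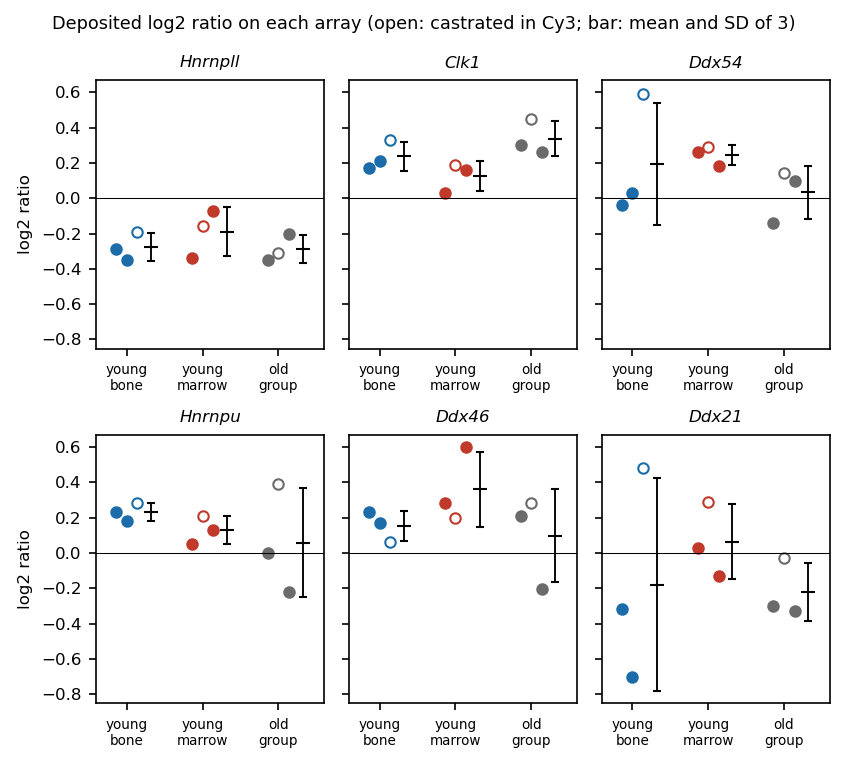
Deposited log2 ratio (y axis) of 6 genes on each array by group (x axis); open points are arrays with the castrated mouse in Cy3, and bars give the mean and SD of the 3 arrays. Hnrnpll lies below 0 and Clk1 above 0 on every array, while the young bone values of Ddx21 range from -0.70 to 0.48.

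The other hnRNP genes showed no further call. Hnrnpu, a nuclear scaffold protein, stood at 0.23, 0.18 and 0.28 in young bone, 0.05, 0.21 and 0.13 in young marrow, and 0.00, 0.39 and -0.22 in the old group. All 6 young arrays were above 0 and the old ones scattered on both sides. The average was 0.18 (SE 0.058, limma adjusted p = 0.145), and -0.12 under the channel reading. Hnrnpl, the close relative of Hnrnpll, had values of 0.45, 0.01 and 0.07 in young bone, -0.01, 0.29 and -0.16 in young marrow, and -0.72, -0.18 and -0.30 in the old group. The old arrays thus lay below all 6 young ones, with an old group value of -0.37 (SE 0.13, limma adjusted p = 0.22). Hnrnph1, which binds runs of G, was above 0 on all old arrays, at 0.145, 0.32 and 0.075 (fitted value 0.18, adjusted p = 0.344, and -0.079 in the channel reading). In young marrow 14 of the 15 hnRNP genes had a fitted ratio above 0 (48.7% of all rows), with a median of 0.11, and Hnrnpll was the exception. The channel reading turned this round, to 1 of 15 above 0 (48.2% of all rows) and a median of -0.078. None passed in young marrow under either reading. The highest was Hnrnpa0 at 0.22 with the deposited signs and Hnrnpa3 at 0.069 in the channel reading.

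The snRNP genes had medians above 0 in young marrow and below 0 in the old group. The median of the 5 genes was 0.13, 0.23 and 0.26 on the young marrow arrays (0.21 ± 0.068, SD, n = 3), -0.11, 0.01 and -0.06 in young bone (-0.053 ± 0.060) and -0.10, -0.16 and -0.11 in the old group (-0.12 ± 0.032). The young marrow medians lay above all 6 others. The means of the same medians over all rows were 0.00 for young marrow, -0.01 for young bone and -0.043 for the old group. With the channel reading the young marrow value was 0.053 and the old one -0.017, and with each array centred on its median the old value was -0.08 and the median of old replicate 1 was 0.01. None of the 5 genes passed in any comparison under either reading. With limma array weights, Snrpa, Snrpa1, Snrpe and Snrpg passed in young marrow, as did 18.1% of all rows.

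Snrpg, a protein of the Sm ring, stood at 0.07, 0.32 and 0.57 in young marrow, 0.12, 0.01 and 0.07 in young bone, and -0.16, -0.08 and -0.21 in the old group. Its young marrow value was 0.33 (SE 0.10, limma adjusted p = 0.276) and the difference of the old group from young marrow was -0.47 (SE 0.14, unadjusted p = 0.008, limma adjusted p = 0.338). Snrpe, also of the Sm ring, had 0.08, 0.22 and 0.39 in young marrow, -0.11, -0.07 and -0.45 in young bone, and 0.04, -0.21 and -0.11 in the old group. Young marrow was above 0 on all its arrays and young bone below, a difference of 0.44 (SE 0.13, limma adjusted p = 0.934), which was -0.0067 under the channel reading.

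Snrpa1, a protein of the U2 snRNP, was the steadiest within the young groups, at 0.20, 0.23 and 0.26 in young marrow and -0.13, -0.10 and -0.06 in young bone, against -0.10, 0.23 and -0.04 in the old group. The difference between the young groups was 0.33 (SE 0.12, limma adjusted p = 0.95). Snrpa, a protein of the U1 snRNP, was above 0 on all 6 young arrays, from 0.05 to 0.27, and averaged 0.086 over the groups. Snrpn, an imprinted gene whose product replaces an Sm protein in the brain, was below 0 on the old arrays at -0.14, -0.16 and -0.32 (-0.21, adjusted p = 0.301) and averaged -0.10, or 0.023 under the channel reading.

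**Figure D3:**
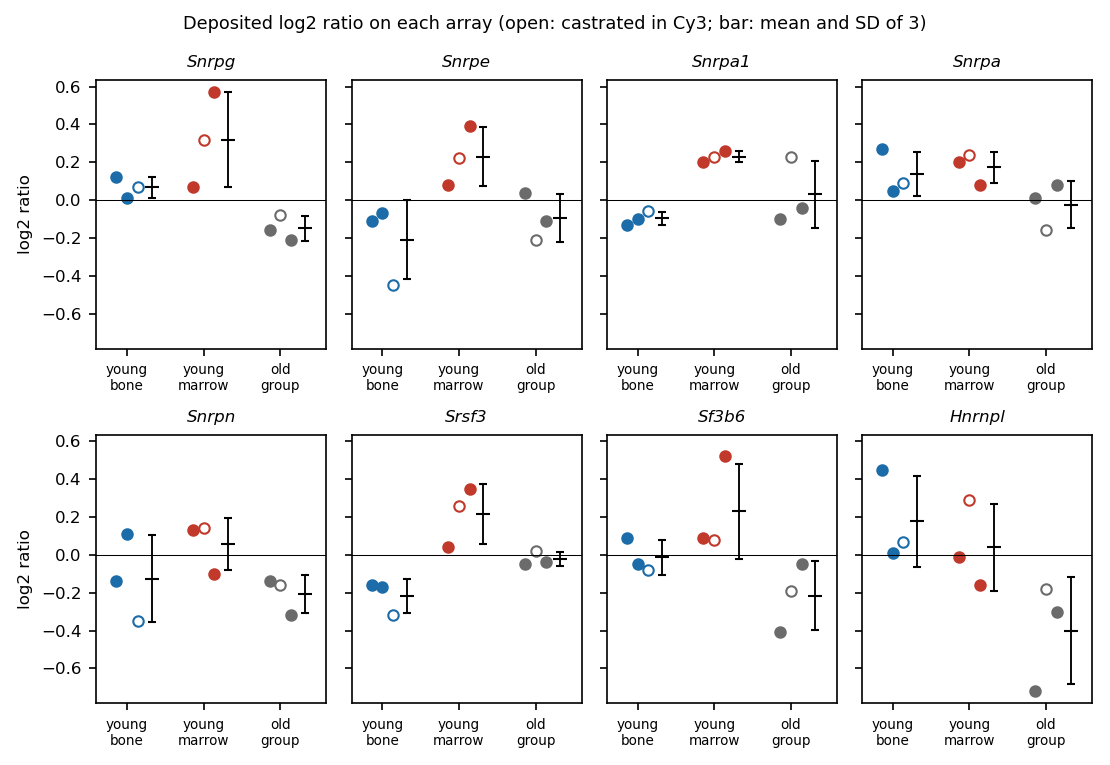
Deposited log2 ratio (y axis) of 8 genes on each array by group (x axis); open points are arrays with the castrated mouse in Cy3, and bars give the mean and SD of the 3 arrays. The young marrow values of Snrpe, Snrpa1 and Srsf3 all lie above their young bone values, and the old values of Hnrnpl below both young groups.

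Among the SR proteins, Srsf3, the smallest of them and also an adaptor for mRNA export, had -0.16, -0.17 and -0.32 in young bone, 0.04, 0.26 and 0.35 in young marrow, and -0.05, 0.02 and -0.04 in the old group. The 3 groups did not overlap, with young bone lowest and young marrow highest. The young marrow value exceeded that of young bone by 0.43 (SE 0.13, unadjusted p = 0.00631), which did not pass adjustment over all rows (limma adjusted p = 0.934), and was 0.047 higher under the channel reading. Srsf5, which favours exon inclusion, was above 0 on the old arrays at 0.23, 0.31 and 0.32 (0.28, adjusted p = 0.307), while its young arrays ran from -0.36 to 0.34. Srsf6 was below 0 on 8 of 9 arrays, averaging -0.072. Srsf4 and Srsf10 had both signs in every group. The median of the 5 genes lay between -0.24 and 0.17 on all arrays, and the groups overlapped.

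The SF3 and PRPF genes followed the snRNP genes in part. Their median was 0.059, 0.09 and 0.22 in young marrow (0.12 ± 0.084, SD, n = 3) and -0.13, -0.14 and -0.037 in the old group (-0.10 ± 0.057), with young bone between (0.043 ± 0.070). Young marrow and the old group did not overlap in the deposited values. Turned to the channel reading, the young marrow value was 0.062 and the old one -0.01. Sf3b6, the SF3b protein that sits at the branch site, had 0.09, 0.08 and 0.52 in young marrow and -0.41, -0.19 and -0.05 in the old group, a difference of -0.45 (SE 0.15, limma adjusted p = 0.338). Prpf6 and Prpf38a, both linked to the U4/U6.U5 particle, were likewise above 0 on all young marrow arrays and below 0 on all old ones. Sf3b1, the largest SF3b protein, averaged 0.12 (SE 0.052, adjusted p = 0.268), with -0.094 under the channel reading. Sf3a1 ran against the rest, with -0.13, -0.615 and 0.30 in young marrow; its value there was -0.20, but 0.031 without replicate 2. Sf3b4 was below 0 on the old arrays, at -0.23, -0.225 and -0.05, and above 0 on 2 of 3 young bone arrays, the highest at 0.605. The difference of the old group from young bone was -0.39 (SE 0.19, limma adjusted p = 0.679).

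**Figure D4:**
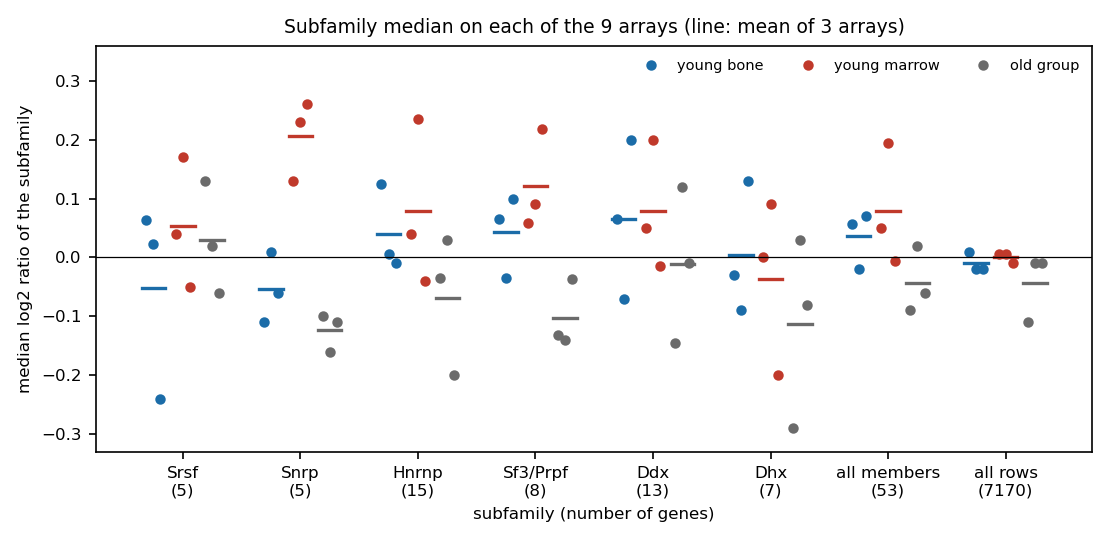
Median log2 ratio of each subfamily (x axis, with the number of genes) on each of the 9 arrays (points, coloured by group) and the mean of the 3 arrays (lines), with all 53 genes and all 7170 rows at the right. For Snrp the 3 young marrow points (0.13 to 0.26) lie above the old ones (-0.16 to -0.10), while for Srsf, Hnrnp, Ddx and Dhx the groups overlap.

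Of the DEAD-box genes, Ddx21, a nucleolar helicase of ribosomal RNA processing, varied widely between replicates: -0.32, -0.70 and 0.48 in young bone, 0.03, 0.29 and -0.13 in young marrow, and -0.30, -0.03 and -0.33 in the old group. By group its plain means were -0.18, 0.063 and -0.22. The fitted values, which lie midway between the dye orders, were -0.090, 0.15 and -0.13. Its fitted average was -0.023 (SE 0.076, limma adjusted p = 0.939). In the channel reading it was -0.27 (SE 0.070, unadjusted p = 0.00375, adjusted p = 0.893) and the young bone value -0.49. The cell cycle genes (18 of 24 listed were measured) had medians of -0.01, -0.42 and 0.33 in young bone, 0.06, 0.28 and -0.17 in young marrow, and -0.17, -0.10 and -0.29 in the old group. In each group both Ddx21 and this median were highest on the array with the castrated mouse in Cy3. This was not particular to Ddx21: Ddx1, Ddx54 and Hnrnpu, among others, were also highest on those arrays, while genes such as Snrpe were not. The part of the cell cycle genes or of the dye in the values of Ddx21 was not tested.

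Ddx54, a nucleolar helicase also known as a partner of oestrogen receptors, averaged 0.20 (SE 0.062, limma adjusted p = 0.118). Its values were 0.26, 0.29 and 0.18 in young marrow, -0.04, 0.03 and 0.59 in young bone, and -0.14, 0.14 and 0.10 in the old group, so that only young marrow was above 0 throughout. It averaged -0.14 in the channel reading. Ddx46, the helicase that helps the U2 snRNP onto the branch site, averaged 0.20 (SE 0.072, adjusted p = 0.195), but its features averaged 0.03 and 0.37. That gap of 0.35 was the largest among the 17 genes with several features, where the median gap was 0.05. Ddx46 passed without old replicate 3 (0.24, limma adjusted p = 0.0372), as did 463 of 7170 rows in that fit.

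Ddx10, which acts in ribosome assembly, was -0.08, -0.24 and -0.11 in young marrow and 0.68, 0.17 and -0.01 in the old group. The groups did not overlap, with a difference of 0.42 (SE 0.18, limma adjusted p = 0.338). Without old replicate 3 the old value of Ddx10 was 0.43 (limma adjusted p = 0.0327) and the difference 0.63 (limma adjusted p = 0.0257). That fit called many rows: 1150 of 7170 passed for the old group and 763 for the difference, against 61 and 0 with all arrays. Ddx10 was the 1 of the 53 genes that passed in each. Ddx52, also of ribosome assembly, showed the same order, from -0.32 to 0.05 in young marrow and from 0.09 to 0.48 in the old group. Ddx39a and Ddx39b, paralogs that load the mRNA export machinery, differed: Ddx39a was at -0.18, -0.35 and -0.19 on the old arrays and Ddx39b at 0.07, 0.17 and 0.10. The difference of the old group from young marrow was -0.43 in Ddx39a (limma adjusted p = 0.338), but 0.067 under the channel reading. Ddx3x, active in translation, was above 0 on all young bone arrays (0.08, 0.16 and 0.17). Ddx41 had values on 7 arrays and Ddx17 on 8.

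For the DEAH-box genes the array medians averaged 0.0033 ± 0.11 in young bone, -0.037 ± 0.15 in young marrow and -0.11 ± 0.16 in the old group (SD, n = 3), and the groups overlapped. The splicing helicases Dhx8, Dhx16 and Dhx38, which drive successive steps of the reaction and the release of the product, did not move together. Dhx8 was below 0 on all young bone arrays, at -0.24, -0.42 and -0.01 (-0.20, limma adjusted p = 0.641). Dhx16 averaged -0.090 and Dhx38 -0.069, both below 0 on all old arrays. Dhx30, a mitochondrial RNA helicase, averaged 0.15 (adjusted p = 0.365), and -0.068 under the channel reading. Dhx29, Dhx33 and Dhx36 had both signs in the old group, and none of the 7 passed.

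By group, no gene passed in young bone, where 0.321% of all rows did; 5 had an unadjusted p under 0.05 (8.52% of all rows) and 31 of 53 stood above 0 (48.0% of all rows), against 22 of 53 in the channel reading (51.3%). On all 3 young bone arrays 9 of 52 genes (17.3%) were above 0, against 10.4% of all rows, and 6 (11.5%) below, against 13.9%; the channel reading also gave 9 above (17.2% of all rows) and 6 below (15.6%). In young marrow no gene passed either (0.739% of all rows), and 5 had an unadjusted p under 0.05 (10.3%), all of them above 0: Ddx46, Ddx54, Snrpa1, Snrpg and Srsf3. There 42 of 53 genes had a fitted ratio above 0, against 48.7% of all rows, with a median of 0.11 against -0.0044, but in the channel reading 14 of 53, against 48.2%, with a median of -0.039. On all 3 young marrow arrays 19 of 52 genes (36.5%) were above 0, against 20.2% of all rows, and 3 below (Ddx10, Hnrnpll and Srsf6; 17.9% of all rows). Turning replicate 2 left 0 of 52 above 0 on all 3 arrays (5.44% of all rows) and 6 below (7.77%). This lean varied with the array: the median of the 53 genes was 0.05, 0.195 and -0.0067, and under the channel reading the mean of these medians was -0.051 instead of 0.079. On replicate 2 alone, the array with the castrated mouse in Cy3, 47 of 53 genes (88.7%) had a deposited ratio above 0, against 50.04% of all rows; in the channel reading those 47 lie below 0. Limma array weights gave that replicate the highest weight, and 15 genes then passed in young marrow, 13 above 0 and 2 below, as did 18.1% of all rows. Cell cycle genes had a young marrow median of 0.11, 16 of 18 above 0, and nucleolar genes one of 0.067, 13 of 16 above 0. In the channel reading these became -0.12 with 2 of 18 above 0, and -0.0048 with 7 of 16; their part in the lean was not tested.

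In the old group no gene passed, against 0.851% of all rows, and 2 (Hnrnpl and Hnrnpll) had an unadjusted p under 0.05 (18.5% of all rows). The median was -0.025 against -0.039 over all rows, and 23 of 53 genes stood above 0, against 42.2%. In the channel reading 13 of 53 stood above 0, against 46.1%. On all 3 old arrays 16 of 52 genes (30.8%) were below 0, against 24.6% of all rows, and 4 above (Ddx39b, Ddx52, Hnrnph1 and Srsf5; 16.7% of all rows). With replicate 2 turned, 9 of 52 were below (9.82% of all rows) and 6 above (4.42%). Centring each array on its own median moved the mean of the old medians of the 53 genes from -0.043 to 0.00, by shifting replicate 1 by 0.11 and replicates 2 and 3 by 0.01 each. The old values of replicate 1 given above are therefore the ones that centring raises most. Skeletal muscle genes (6 of 8 measured) had medians of 1.04, 0.155 and 0.31 on the old arrays, against -1.36, -0.195 and -0.60 in young bone; their part in these differences was not tested.

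Direct tests of the differences between groups gave no call among the 53 genes. For the old group minus young marrow, no row in all passed (1055 rows had an unadjusted p under 0.05, 14.7%), and 7 of the genes did so, 1 above 0 and 6 below. The median difference was -0.14, against -0.057 over all rows, and 12 of 53 genes had a difference above 0, against 41.2% of all rows. The old values of 13 of 51 genes (25.5%) lay wholly below those of young marrow, against 11.7% of all rows, and those of Ddx10 and Ddx52 wholly above, against 9.58%. Of the 13, 3 are snRNP genes (Snrpe, Snrpg and Snrpn) and 3 SF3 or PRPF genes (Sf3b6, Prpf6 and Prpf38a). With the channel reading 0 of the 53 genes had an unadjusted p under 0.05 in this limma comparison, against 0.697% of all rows, and 0 passed adjustment. There 22 of 53 genes had a difference above 0 (47.9% of all rows), with a median of -0.028 against -0.0067, and the old values of 1 of 51 genes lay wholly below young marrow (1.77% of all rows) and of 0 wholly above (0.862%). Same-numbered arrays of these 2 groups deviated together, although they come from mice of different ages. Such arrays also share the dye order, and the part of the dye was not tested. In a limma fit of the 6 arrays with the replicate number as a block, 0 of 51 genes and 0 of 6182 rows passed; 12 genes, 10 of them below 0, had an unadjusted p under 0.05, as did 26.5% of all rows, and the smallest adjusted p was 0.0922 (Sf3b6).

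For young marrow minus young bone no row passed either (335 at an unadjusted p under 0.05, 4.67%), and 3 of the genes (Snrpa1, Snrpe and Srsf3) had an unadjusted p under 0.05, while 30 of 53 had a difference above 0 (49.1% of all rows), against 27 of 53 in the channel reading (49.7%). Together with Hnrnpa3 they are the 4 of 51 genes (7.84%) whose young marrow values lay wholly above young bone, against 7.0% of all rows; none lay wholly below (4.0% of all rows). In the channel reading 1 lay wholly above (2.94%) and 3 below (3.92%). For the old group minus young bone 1 row in all passed (0.0139%), which was none of these genes, and 17 of 53 had a difference above 0 (44.6% of all rows), against 25 of 53 in the channel reading (48.2%). Only Hnrnpl had an unadjusted p under 0.05 (6.82% of all rows). Its difference was -0.58 (SE 0.18, limma adjusted p = 0.679), and -0.41 under the channel reading. The old values lay wholly below young bone in Hnrnpl, Sf3b4 and Snrpg (4.59% of all rows) and wholly above in Hnrnpa3 and Srsf3 (3.37%); in the channel reading these counts were 5 (4.75%) and 1 (2.51%). Comparisons that use the same group share its arrays and are not independent of each other.

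Genes that work beside these were read from a list of 74 other splicing and mRNA export genes, of which 28 were measured. In the average 1 of the 28 passed, against 3.91% of all rows, and the median was 0.016. This was Clk1, a kinase that phosphorylates SR proteins: 0.17, 0.21 and 0.33 in young bone, 0.03, 0.19 and 0.16 in young marrow, and 0.30, 0.45 and 0.26 in the old group. It was above 0 on 9 of 9 arrays, as were 1.89% of all rows with 9 values, and rose by 0.26 (limma adjusted p = 0.0162). The related kinases Clk2 and Clk4 stood at 0.096 and 0.13 (adjusted p = 0.422 and 0.245), and Srpk2, another SR protein kinase, at -0.15 (adjusted p = 0.168). Tardbp, an RNA-binding protein of the hnRNP kind, was above 0 on all marrow and old arrays and averaged 0.18 (adjusted p = 0.116). In young marrow 22 of the 28 genes were above 0 (48.7% of all rows), with a median of 0.073. In the channel reading 14 of 28 were above 0 (48.2% of all rows), with a median of -0.0040. No gene of the list passed under the channel reading. Of the 40 nucleolar and ribosome assembly genes 16 were measured and none passed in the average, at a median of 0.019; of the 18 measured cell cycle genes none passed either, at 0.0092.

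**Figure D5:**
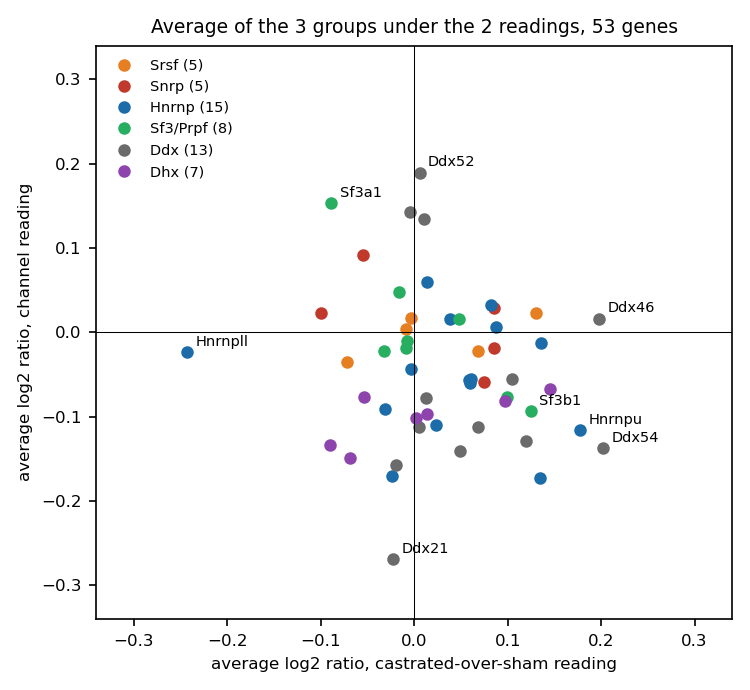
Average log2 ratio over the 3 groups of each of the 53 genes under the castrated-over-sham reading (x axis) and the channel reading (y axis), coloured by subfamily. Ddx54, Hnrnpu and Sf3b1 lie right of 0 on the x axis and below 0 on the y axis, Hnrnpll at -0.24 and -0.023, and Ddx21 at -0.023 and -0.27.

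The gene with the lowest average thus differed between the readings, and in the channel reading none of the 7170 rows passed in the average. The lowest channel average belonged to Ddx21, whose value under the other reading was near 0, and the average of Hnrnpll was near 0. The median of the 53 averages was -0.055 under the channel reading against 0.013. In the single groups no gene passed under the channel reading, with an unadjusted limma p under 0.05 in 7 of the 53 genes in young bone (6.56% of all rows), 0 in young marrow (0.781%) and 5 in the old group (2.37%). Differences reached an unadjusted p under 0.05 in 5 genes between the young groups (1.48%) and in 3 between the old group and young bone (3.85%). No call of a direction for Ddx54, Hnrnpu, Sf3b1, Dhx30, Snrpn or Sf3a1 can be made from the averages, since their signs turned between the readings.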

How the data were processed

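Dual-colour arrays were analysed as 9 arrays in 3 groups. The authors deposited 1 table of log ratios, 11552 features by 9 arrays, read here as log2; the sources used here do not give background treatment, normalization, direction or log base. Intensities were not used here. Features were named by the platform annotation, which gave 8050 of them 1 gene, 672 several and 2830 no entry; symbols were updated by gene ID. For the name rule, 18 features annotated to several genes and 5 annotated to human genes were left out. Features with a value on at least 2 arrays of each group (8885) were averaged per gene, giving 7170 rows. R 4.3.3 and limma 3.58.1 fitted all 9 arrays with 1 coefficient for each group plus a shared term for the dye. Fitted values thus lie midway between the dye orders, although 6 arrays had the castrated mouse in Cy5 and 3 in Cy3. They can differ clearly from plain means, as for Ddx21 in young bone (-0.090 against a plain mean of -0.18). Adjustment was by Benjamini-Hochberg across the 7170 rows, with a threshold of 0.05. The limma routine was tested on simulated data.

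Values were named for Ddx21, every gene past the threshold or with 1 sign on all arrays, the 4 smallest p in each direction of each comparison, the extremes of each subfamily, and genes whose features disagreed by over 0.3 with opposite signs. Pathway genes, Snrp array values and a few others beside these were chosen after their values were seen. The genes and lists were chosen with earlier results of these data known. Deviations from the group means of same-numbered old and young marrow arrays correlated at 0.28 to 0.61, over 0.1 in 3 of 3 pairs, so a block fit of these 6 arrays was added after the data were seen. That pairing comes from the values, not from the labels. Arrays of these 2 groups with other numbers correlated at -0.53 to 0.15, and such pairs over all groups reached 0.42. Same-numbered arrays of these 2 groups also share the dye order, for which the correlations were not adjusted. Other alternatives were the channel reading, centring, scaling, array weights, no dye term, the 6 unswapped arrays, the replicate number as a block, features one by one, rows with 9 values and leaving out each array. In the average of the groups, the other marker lists gave medians of 0.00 (erythroid, 3 of 9 genes measured), -0.25 (monocyte and macrophage, 4 of 7), -0.14 (T lymphocyte, 1 of 6, Cd4), 0.30 (megakaryocyte, 4 of 5), 0.43 (bone matrix, 3 of 11), -0.13 (skeletal muscle, 6 of 8) and 0.66 (adipocyte, 4 of 7).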

Additional observations from a re-analysis of the deposited data

Results flagged for a closer look

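Several genes had opposite signs in 2 groups on every array. Such opposition was seen in 4 of 51 genes between young marrow and young bone (2.8% of all rows), 5 of 51 between the old group and young marrow (5.58%) and 2 of 51 between the old group and young bone (1.68%). The limma test of the difference passed for none of them. Young marrow stood above young bone by 0.28 in Hnrnpa3, 0.33 in Snrpa1, 0.44 in Snrpe and 0.43 in Srsf3, with adjusted p of 0.969, 0.95, 0.934 and 0.934. The old group minus young marrow was -0.43 in Ddx39a, -0.45 in Sf3b6 and -0.47 in Snrpg, each with an adjusted p of 0.338. The old group minus young bone was -0.58 in Hnrnpl (adjusted p = 0.679) and -0.22 in Snrpg (0.704).

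The medians of 2 subfamilies also had opposite signs on every array of the old group and young marrow. The difference was -0.33 for the Snrp median and -0.23 for the Sf3 and Prpf median; the difference was not tested. For Snrp the opposition was lost when each array was centred on its median, where old replicate 1 stood at 0.01. For both subfamilies it was lost in the channel reading, where the Snrp median was -0.23 on young marrow replicate 2 and 0.16 on old replicate 2, and the Sf3 and Prpf median -0.09 and 0.14. Prpf6 and Prpf38a were opposed as well.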

How the results depend on the processing

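Of 1062 values of the named genes under alternatives, 1011 kept direction and side of the threshold, 9 lost and 11 gained a call, and 31 turned sign, 22 of them under the channel reading; of 316 medians and counts 23 moved. The count of 1 gene in the average became 0 under the channel reading, after scaling and on the unswapped arrays, 3 with array weights, and 0 to 2 when single arrays were left out. Over all rows the main count was 280, and these counts were 0, 293, 70, 764, and 74 to 463. The young marrow count became 15 with array weights, where 1300 of 7170 rows passed. The old count and that of the old group minus young marrow ranged from 0 to 1 when single arrays were left out. Each was 1 without old replicate 3, where 1150 and 763 of 7170 rows passed. Under the channel reading the young marrow medians were -0.06 (Srsf), 0.053 (Snrp), -0.078 (Hnrnp), -0.055 (Ddx) and -0.051 (all 53 genes), and the old ones -0.017 (Snrp) and -0.01 (Sf3 and Prpf); the old Snrp median was -0.08 after centring and -0.091 after scaling.

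Signs turned under the channel reading in the average for Ddx54 (-0.14), Dhx30 (-0.068), Hnrnpu (-0.12), Sf3a1 (0.15), Sf3b1 (-0.094) and Snrpn (0.023). They turned in young bone for Ddx54 (-0.27), Hnrnpu (-0.016), Sf3b3 (-0.047) and Snrpe (0.11), in young marrow for Ddx10 (0.013), Ddx54 (-0.018) and Sf3a1 (0.29), and in the old group for Ddx11 (-0.066), Hnrnph1 (-0.079) and Hnrnpll (0.0011). Among differences they turned for Snrpe between the young groups (-0.0067), for Ddx39a (0.067) and Sf3a1 (-0.105) between old and young marrow, and for Ddx10 (-0.063), Ddx24 (0.01) and Srsf3 (-0.033) between old and young bone. On the unswapped arrays Sf3a1 was 0.064 in the average and 0.085 in young marrow, and Ddx54 -0.005 in young bone. The average of Ddx21 turned to 0.041, 0.024 and 0.027 without replicate 2 of the old, young bone and young marrow group. Leaving out single arrays, Sf3a1 ranged from -0.17 to 0.0098 in the average and up to 0.031 in young marrow, both highest without young marrow replicate 2. The cause was not tested.

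With the replicate number as a block, 1 of the 53 genes passed in the average, Hnrnpll at -0.25 (limma adjusted p = 0.0357), and 269 rows in all against 280; Ddx21 turned to 0.016. The block changed no other call. Same-numbered arrays of young bone and young marrow correlated between -0.37 and -0.064, and those of the old group and young bone between -0.11 and 0.41, with 1 of 3 pairs over 0.1, so the numbers pair neither. Young bone and young marrow arrays with other numbers correlated between -0.29 and 0.37. No other pairing of these arrays was fitted, and the main fit treats the young groups as independent. Signal over background is unknown, and 3 arrays a group limit what can pass.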
